A study of Homo sapiens with 2 samples.

Results

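The 40 genes described here act in homologous recombination and in the Fanconi anemia pathway, and 36 of them were measured, of 19775 genes in all. The list was drawn up by function. A probe set is a group of short probes on the array that reads 1 stretch of transcript. A gene counted as measured when at least 1 probe set carried its symbol and no other, and BRCA2, RBBP8, FANCA and FANCD2 were not analysed here. Where a gene had several probe sets, its brightest one was used, by the mean of PC3 and PC3CR. PC3 is an established line of prostate cancer cells, from which the subline PC3CR was raised, with acquired resistance to cabazitaxel (CBZ), a taxane that stabilises microtubules. PC3CR had been kept in CBZ for 18 months and was profiled after 3 months without the drug, and both lines were grown in the same serum-supplemented medium. The labels do not say whether PC3CR is a single clone. Total RNA of each line went onto 1 array, so that every comparison below is of PC3CR with PC3 across 2 arrays, with no replicate and no p-value. Values are log2 expression values that the authors made by the robust multichip average (RMA), and a difference of 1 between the arrays is a 2-fold difference, the threshold in the methods.

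Homologous recombination repairs a broken chromosome by copying an intact sister. The broken ends are trimmed back, a protein filament is built on the exposed single strand with the help of BRCA1, PALB2 and BRCA2, the strand invades the sister, and the joined molecules are separated by helicases or cut apart by nucleases. The Fanconi anemia pathway removes crosslinks between the strands of DNA. A core complex attaches ubiquitin to the pair FANCD2 and FANCI, which then recruits nucleases and the recombination machinery. Recombination needs a sister chromatid, and many of its genes are transcribed mainly as cells enter and pass through S phase.

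Of the epithelial markers, KRT18 was at 11.69 in PC3 and 12.36 in PC3CR and EPCAM at 11.07 and 8.57, and KRT8 and CDH1 were above 8 on both arrays. Of the prostate markers, KLK3 was at 8.04 and 8.08, TMPRSS2 at 6.23 and 5.78 and HOXB13 at 5.999 and 4.27, while KLK2, at 4.23 and 4.26, was near the lower quartile of genes (4.22 in PC3 and 4.10 in PC3CR). Across all genes the median difference was -0.04. In total RNA, more of a transcript per cell and more cells that carry it, such as cells in S phase, cannot be told apart.

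Recombination and Fanconi anemia genes were more often higher than lower in PC3CR. Of the 36 measured genes, 16 (44.4%) reached 2-fold upward in PC3CR, 20 stayed within 2-fold and none reached 2-fold downward. Over all 19775 genes, 9.84% reached 2-fold upward and 6.72% downward. Of the 29 measured genes of the list whose brighter array reached the median of genes on it, 15 were at least 2-fold higher. Over all genes 10644 met this signal rule, which PC3CR alone can fulfil, and 1657 of them were at least 2-fold higher. The median difference of the 36 genes was 0.50, and single genes ran from -0.78 for FANCB to 2.24 for RMI2. The differences were of moderate size. They exceeded 3-fold for 5 genes, namely RMI2, UBE2T, BRCA1, FIGNL1 and RMI1, and 8 of the 16 higher genes lay between 1 and 1.25 on the log2 scale, close to the threshold. USP1 at 1.01 was the gene just past it and FANCI at 0.96 the one just short of it. The Fanconi anemia genes had a median of 1.04 over 11 genes, 7 of them past 2-fold, and the recombination genes a median of 0.30 over 25 genes, 9 of them past 2-fold. After loess centring, which removes a trend of the difference with signal, 4 of the 11 and 9 of the 25 were past 2-fold, which are nearly equal shares. Averaging over probe sets gave medians of 0.65 and 0.32. Whether these groups differ was not tested.

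**Figure D1:**
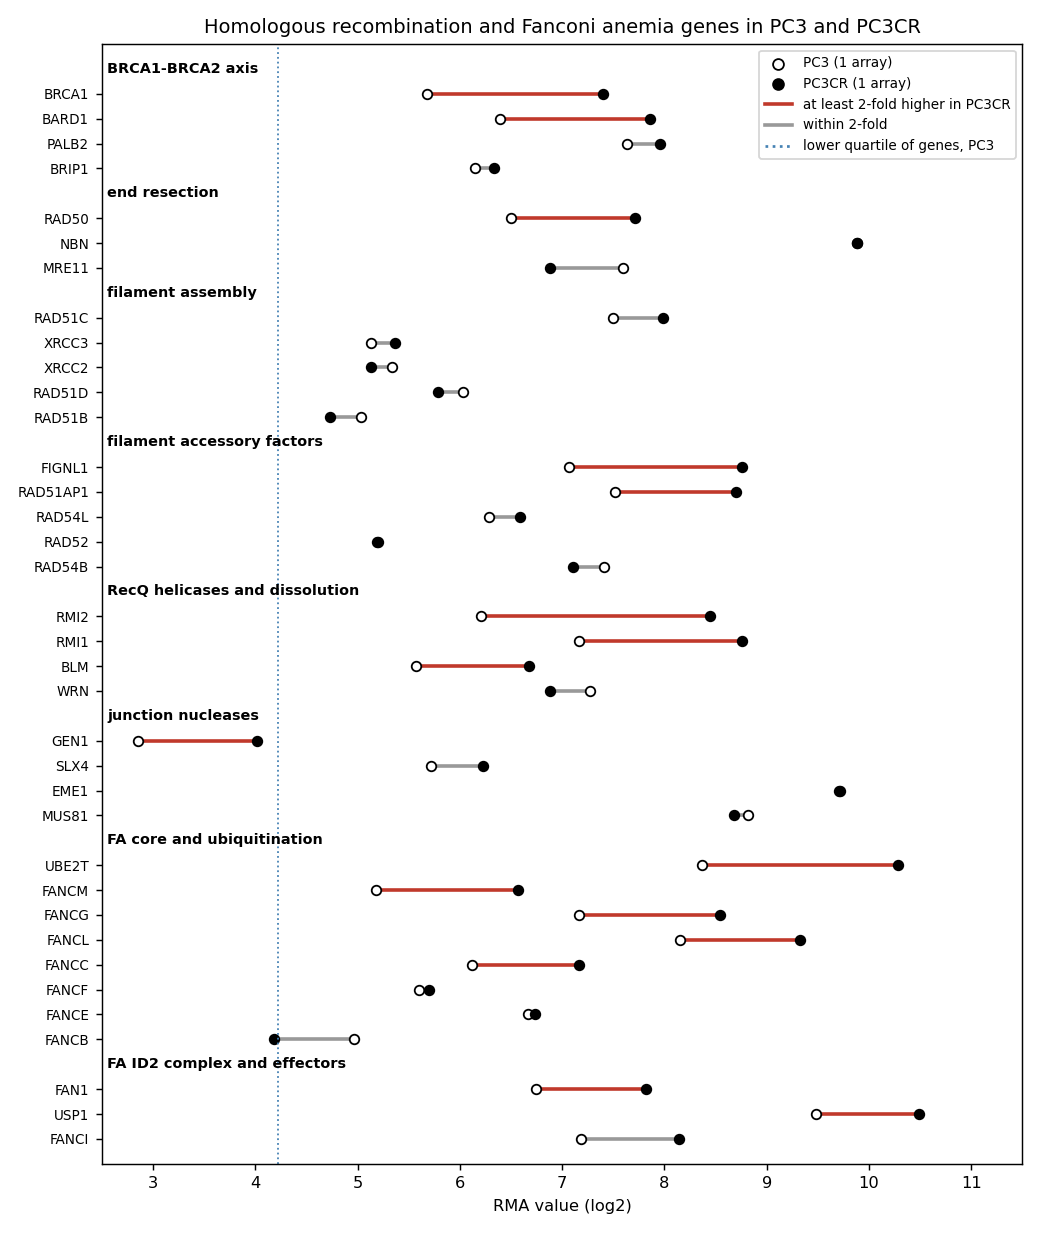
RMA values (log2, horizontal axis) of the 36 measured genes in PC3 (open points) and PC3CR (filled points), 1 array each, grouped by role; red lines join genes at least 2-fold higher in PC3CR and grey lines genes within 2-fold. All 5 filament assembly genes (RAD51B, RAD51C, RAD51D, XRCC2 and XRCC3) have grey lines, while 5 of the 8 core and ubiquitination genes of the Fanconi anemia pathway have red ones.

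Short stretches of promoter are printed beside those genes whose window held a motif linked to cell cycle transcription. The stretches are the 250 bases upstream of a RefSeq gene start on GRCh38.p14, written 5′ to 3′ along the gene's strand. Both strands were searched for the E2F motif, spelled TTTCCCGC, TTTGGCGC, TTTCGCGC or TTTGCCGC, and for the cell cycle homology region (CHR), spelled TTTGAA. E2F factors drive genes of the G1 to S transition, and the CHR is bound by the DREAM and MuvB complexes. Capitals in the sequences mark these motifs. Windows were found for 31 of the 36 genes.

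In the BRCA1 and BRCA2 axis, BRCA1 and its partner BARD1 were higher in PC3CR, and the genes downstream of them hardly differed. BRCA1, a ubiquitin ligase subunit that directs breaks to recombination, stood at 5.68 in PC3 against 7.40 in PC3CR (PC3CR minus PC3 1.72, or 3.29-fold). This size rests on 1 of its 2 probe sets, since the other differed by 0.18, and the mean of both was 0.95. BARD1, which pairs with BRCA1 through its RING domain, stood at 6.39 in PC3 against 7.86 in PC3CR (PC3CR minus PC3 1.47.) Its 3 probe sets lay between 1.47 and 1.74, so that BARD1 was past 2-fold by each of them. PALB2, which bridges BRCA1 to BRCA2, was at 7.64 and 7.95, a difference of 0.32. BRIP1, the helicase FANCJ that binds the BRCT domain of BRCA1, was at 6.15 and 6.33, a difference of 0.18. Neither PALB2 nor BRIP1 came near 2-fold. The promoter window of BRIP1 (chr17:61863529-61863778, minus strand) is shown because it holds a CHR motif although BRIP1 hardly differed.
BRIP1: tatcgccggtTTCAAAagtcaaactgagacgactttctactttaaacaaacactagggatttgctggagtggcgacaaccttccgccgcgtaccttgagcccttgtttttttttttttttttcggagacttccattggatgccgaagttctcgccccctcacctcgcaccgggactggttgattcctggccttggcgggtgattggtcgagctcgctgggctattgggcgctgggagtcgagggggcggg

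End resection gave no common direction. RAD50, the coiled-coil ATPase of the MRN complex, stood at 6.50 in PC3 against 7.72 in PC3CR (PC3CR minus PC3 1.21), and its 3 probe sets were all past 2-fold, the lowest at 1.12. MRE11, the nuclease of the same complex, was at 7.60 and 6.88, a difference of -0.72. Its other probe sets differed by -0.18 and 0.35, and both were under the lower quartile of genes in PC3. NBN, the third subunit, was at 9.89 and 9.88 by its brightest probe set. The 5 probe sets of NBN differed by between -0.59 and 0.02, and 3 of them were lower in PC3CR by more than 0.5. Subunits of 1 complex therefore had RAD50 past 2-fold and both partners at or below 0 by their brightest probe sets.

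The related genes RAD51B, RAD51C, RAD51D, XRCC2 and XRCC3, which help to assemble recombination filaments, held none of the 16 higher genes. RAD51C differed by 0.49, XRCC3 by 0.23, XRCC2 by -0.20, RAD51D by -0.25 and RAD51B by -0.31, with a median of -0.20 over the 5 genes. The direction depended on the probe set for RAD51B and RAD51D. For RAD51B, 2 of 4 probe sets differed by 1.01 and 1.02, and the second probe set of RAD51D by 1.01. All 3 were dimmer than the probe sets used by the mean of both arrays, and in PC3 they were under the lower quartile of genes. In PC3CR, however, 1 of those of RAD51B was at 5.18, above the probe set used at 4.73. When probe sets were averaged per gene, the median of these 5 genes was 0.38, and none was past 2-fold. When probe sets without the suffix that marks probes able to bind several transcripts were preferred, RAD51B at 1.02 and RAD51D at 1.01 were past it.

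Among the other factors that act on recombination filaments, FIGNL1 and RAD51AP1 were higher and the rest lay within 2-fold. FIGNL1, an AAA ATPase that takes filaments apart, stood at 7.07 in PC3 against 8.76 in PC3CR (PC3CR minus PC3 1.69), and both of its probe sets were past 2-fold (1.61 and 1.69). RAD51AP1, which stimulates strand invasion, was at 7.52 and 8.70, a difference of 1.18 on its only probe set. RAD54L, the translocase RAD54 that works in strand invasion, was at 6.28 and 6.58, a difference of 0.30. Its relative RAD54B was at 7.41 and 7.11, a difference of -0.30, and the annealing protein RAD52 was at 5.20 and 5.19. The 4 probe sets of RAD52 disagreed, from -0.45 to 0.92.

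The complex that dissolves joined DNA molecules stood highest. RMI2, a small scaffold subunit of the complex of BLM with TOP3A, stood at 6.21 in PC3 against 8.45 in PC3CR (PC3CR minus PC3 2.24, or 4.72-fold), which was the highest value of the 36 genes. RMI1, its partner that stimulates TOP3A, was at 7.16 and 8.76, a difference of 1.60 or 3.03-fold. BLM, the helicase mutated in Bloom syndrome, was at 5.58 and 6.68, a difference of 1.10. These 3 subunits were past 2-fold, but each was read by a single probe set. BLM was near the threshold, at 1.02 after loess centring and 0.99, within 2-fold, after quantile normalization. TOP3A, the topoisomerase of the complex and not one of the 36 genes, was at 6.25 and 6.68, a difference of 0.43. WRN, the helicase of Werner syndrome, was at 7.27 and 6.88, a difference of -0.39. A window of RMI1 (chr9:83980555-83980804, plus strand) is shown because it holds an E2F motif.
RMI1: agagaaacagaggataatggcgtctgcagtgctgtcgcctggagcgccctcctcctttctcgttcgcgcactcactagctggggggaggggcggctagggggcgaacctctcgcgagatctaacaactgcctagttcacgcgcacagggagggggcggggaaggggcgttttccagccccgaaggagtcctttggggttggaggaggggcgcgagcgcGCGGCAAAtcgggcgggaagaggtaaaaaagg

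Of the nucleases that cut joined molecules and their scaffold, GEN1 was past 2-fold and the rest were not. MUS81 was at 8.81 in PC3 and 8.68 in PC3CR and its partner EME1 at 9.72 and 9.71, differences of -0.13 and -0.01. The second probe set of EME1 was dimmer, at 6.14 and 6.50, and differed by 0.37. SLX4, the scaffold that gathers these nucleases, was at 5.72 and 6.22, a difference of 0.50, and its second probe set differed by -0.25. GEN1, a resolvase that acts apart from them, differed by 1.16. Its values of 2.85 and 4.01 fell under the lower quartile on each array, and its second probe set differed by 0.31.

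In the Fanconi anemia core complex and its ubiquitin enzymes, 5 of 8 genes were at least 2-fold higher. UBE2T, the E2 enzyme that supplies the ubiquitin, stood at 8.37 in PC3 against 10.29 in PC3CR (PC3CR minus PC3 1.92, or 3.77-fold). FANCL, the ubiquitin ligase that works with it, was at 8.15 and 9.33, a difference of 1.18. This pair of enzymes was therefore past 2-fold, each on a single probe set. FANCM, the translocase that anchors the core complex to DNA, was at 5.18 and 6.57, a difference of 1.39, and FANCG, a subunit of that complex, was at 7.17 and 8.54, a difference of 1.37. FANCC was at 6.12 and 7.16, a difference of 1.04. FANCG had 1 probe set, while those of FANCM and FANCC disagreed. The 4 of FANCM differed by between -0.09 and 1.39 and the 3 of FANCC by between -0.18 and 1.04, and as means of probe sets FANCM was at 0.65 and FANCC at 0.32. With the mean of probe sets 3 of the 8 genes were past 2-fold and the median of the group went from 1.11 to 0.49. FANCF and FANCE differed by 0.10 and 0.07. FANCB, the X-linked subunit that binds FANCL, was at 4.97 and 4.19, a difference of -0.78, and all 4 of its probe sets were lower in PC3CR, by -0.40 to -0.95. The windows of UBE2T (chr1:202341937-202342186, minus strand) and of FANCC (chr9:95317710-95317959, minus strand) are shown because the first holds a CHR motif and the second a CHR motif and 2 E2F motifs.
UBE2T: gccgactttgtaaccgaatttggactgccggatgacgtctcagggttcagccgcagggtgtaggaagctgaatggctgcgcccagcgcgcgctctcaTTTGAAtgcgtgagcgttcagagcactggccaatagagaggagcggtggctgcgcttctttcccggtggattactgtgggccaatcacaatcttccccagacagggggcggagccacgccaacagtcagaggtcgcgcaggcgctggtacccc
FANCC: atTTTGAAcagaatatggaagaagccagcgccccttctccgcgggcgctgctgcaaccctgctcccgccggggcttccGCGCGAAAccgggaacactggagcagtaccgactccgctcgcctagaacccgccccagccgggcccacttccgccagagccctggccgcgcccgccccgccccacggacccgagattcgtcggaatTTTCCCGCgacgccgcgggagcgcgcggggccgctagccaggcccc

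Downstream of the core complex, the 3 measured genes lay close together, between 0.96 and 1.08. FANCI, a subunit of the complex that receives ubiquitin, stood at 7.18 in PC3 against 8.14 in PC3CR (PC3CR minus PC3 0.96), while its other probe sets differed by 1.24 and 1.59. USP1, the enzyme that takes the ubiquitin off again, was at 9.48 and 10.49, a difference of 1.01, with 1.34 on its second probe set. FAN1, a nuclease recruited to crosslinks, was at 6.74 and 7.82, a difference of 1.08, but 1 of its 3 probe sets differed by -0.04. The 2-fold rule separated these 3 genes by small amounts, and after loess centring, which removes the trend of the difference with signal, none of them was past it. A window of USP1 (chr1:62436799-62437048, plus strand) is shown because it holds 2 CHR motifs.
USP1: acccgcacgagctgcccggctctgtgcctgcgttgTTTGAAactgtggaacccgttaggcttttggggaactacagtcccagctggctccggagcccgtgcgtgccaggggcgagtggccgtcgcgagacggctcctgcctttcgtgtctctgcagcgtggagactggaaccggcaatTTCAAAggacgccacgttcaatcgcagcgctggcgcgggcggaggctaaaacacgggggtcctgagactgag

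Probe sets of 1 gene agreed for some genes and not for others. The 36 genes had 74 probe sets, of which 27 (36.5%) reached 2-fold upward and 0 downward. Of all 41091 probe sets with 1 symbol, 8.94% were higher by this rule. Of the 16 higher genes, 7 had a single probe set. In 4 of the other 9 (BARD1, RAD50, FIGNL1 and USP1) every probe set was past 2-fold, and in 3 (FANCM, FANCC and FAN1) 1 probe set was lower in PC3CR. With the mean of probe sets, 12 of 36 genes (33.3%) were past 2-fold, beside 6.92% of all genes. BRCA1, FANCM, FANCC, FAN1 and GEN1 were then within 2-fold and FANCI past it at 1.26. In 9 of the 16 genes the difference remained at least 1 with the mean of probe sets, after loess centring, after quantile normalization and with probe sets without the shared suffix preferred. In 6 of them (RAD51AP1, RMI1, RMI2, FANCG, FANCL and UBE2T) a single probe set reads the gene, so the mean and the other choice of probe set could not differ from the value used. The other 3 were BARD1, RAD50 and FIGNL1. The preference for probe sets without the suffix left the count at 16 but exchanged genes. FANCC at 0.09 and FANCM at -0.09 were then within 2-fold, RAD51B and RAD51D were past it, and MRE11 moved from -0.72 to 0.35.

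**Figure D2:**
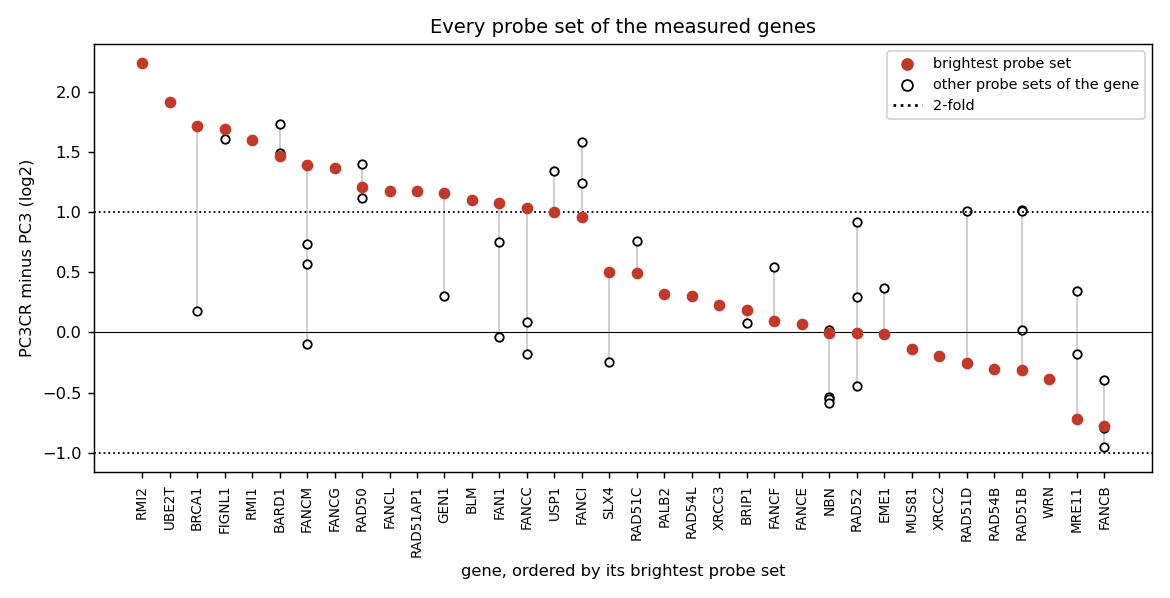
PC3CR minus PC3 (log2, vertical axis) for all 74 probe sets of the 36 genes, ordered by the brightest probe set of each gene (red); open points are the other probe sets and dotted lines mark 2-fold. The open points of BARD1, RAD50 and FIGNL1 lie beside the red ones, whereas those of BRCA1, FANCM and FANCC fall towards 0.

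The higher genes were in part those known to cycle. A list of 16 of the 40 genes widely described as induced at the G1 to S transition or as targets of E2F or DREAM was set up from general knowledge. This list and the wider one below were made with earlier results of these data known, so the split may depend on the values. Of the 13 measured genes on the main list, 7 were at least 2-fold higher, with a median of 1.01. Of the 23 measured genes outside it 9 were, with a median of 0.32, beside 9.84% of all genes. The 7 were BRCA1, BARD1, RAD51AP1, BLM, RMI2, UBE2T and USP1. The other 6 on the list were FANCI at 0.96, RAD54L at 0.30, BRIP1 at 0.18, EME1 at -0.01, XRCC2 at -0.20 and FANCB at -0.78. When 9 genes whose cycling is less sure were added to the list, 12 of its 21 measured genes were at least 2-fold higher, and of the 15 outside it 4 were, with a median of 0.07. The added genes past 2-fold were FIGNL1, RMI1, FANCM, FANCG and GEN1. Those outside both lists were RAD50, FANCL, FAN1 and FANCC. With the mean of probe sets, 7 of 13 listed genes and 5 of 23 others were past 2-fold, beside 6.92% of all genes. The differences between these groups of genes were not tested.

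The cell cycle genes around them set the scale. Of 37 S phase marker genes outside the 40, 21 reached 2-fold upward and 0 downward, with a median of 1.08. Over all genes 9.84% reached 2-fold upward, and 1657 of the 10644 whose brighter array reached the median. Of the 37 markers, 36 had such a signal. Of 54 markers of the G2 and M phases, 37 reached 2-fold upward, with a median of 1.47, and all 54 had such a signal. The listed cycling genes lay close to the S phase markers in median, at 1.01 beside 1.08. With the mean of probe sets these medians were 1.10 and 0.84. The cycling list was made with earlier results of these data known, so its median may depend on the values. The part of cell cycle phase in the differences of the 36 genes was not tested.

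**Figure D3:**
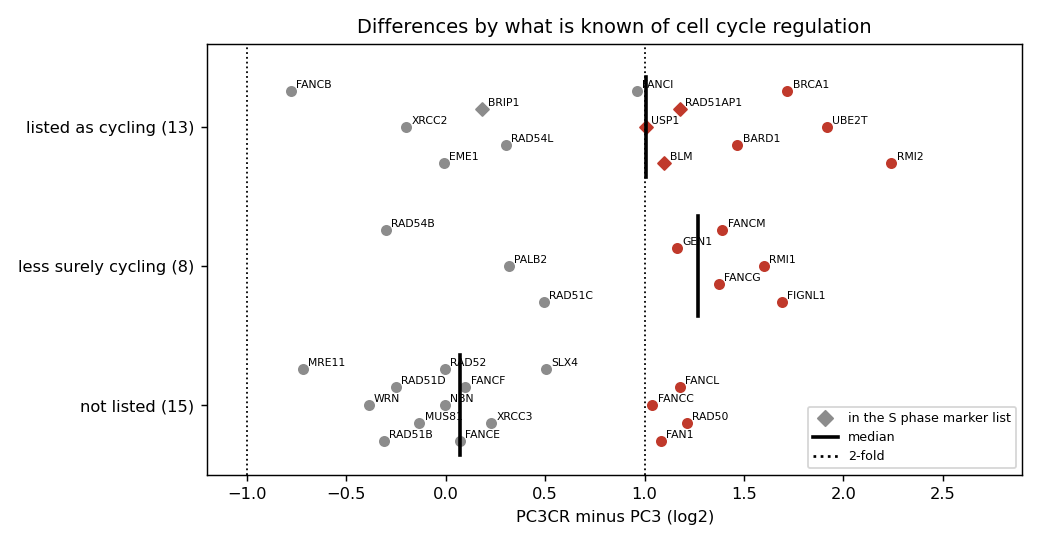
PC3CR minus PC3 (log2, horizontal axis) of the 36 genes by what is known of their regulation in the cell cycle, 1 point per gene, with diamonds for genes of a widely used S phase marker list, red for at least 2-fold higher, black bars for medians and dotted lines at 2-fold. The median is 1.01 for the 13 listed genes, 1.27 for the 8 less surely cycling ones and 0.07 for the 15 not listed.

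The promoter motifs were found in few of these genes. The E2F letters were in the windows of 2 of 31 genes, RMI1 and FANCC, and of 4.54% of 15384 measured genes with a window. The 2 genes are 6.45% of the 31, near the share over all measured genes. Each has 2 windows, and the letters were in 1 of them. Neither gene is on the main cycling list. Both were past 2-fold, but FANCC by its brightest probe set alone, and it was at 0.91 after loess centring. The CHR letters were in 4 of 31 genes (12.9%), UBE2T, USP1, FANCC and BRIP1, and in 13.9% of measured genes, a similar share. The first 3 were past 2-fold and BRIP1 was not. The CCAAT letters, the core of the NF-Y box, were searched on both strands without regard to the other motifs and were in 8 of the 15 higher genes with a window, 7 of the 16 others and 39.7% of measured genes. In the sequences above, the CHR motif of UBE2T begins 153 bases before the gene start. The E2F motifs of FANCC begin 172 and 46 bases before it, and that of RMI1 begins 32 bases before it. A match describes the letters in these windows and not binding.

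Of the other genes of the same pathways, listed apart from the 40, 45 were measured. Among these, 7 (15.6%) reached 2-fold upward, beside 9.84% of all genes, and 1 downward, with a median of 0.00. Of the 39 whose brighter array reached the median, 7 were higher, beside 1657 of 10644 such genes in all. Whether they differ from the 36 genes was not tested. DCLRE1A, a crosslink repair nuclease, stood at 5.86 in PC3 against 7.84 in PC3CR (PC3CR minus PC3 1.98). POLQ, the polymerase of an end joining route that competes with recombination, differed by 1.59, with 0.00 on its second probe set. The resection nuclease EXO1, also one of the S phase markers, differed by 1.44. The single-strand binding subunits RPA3 and RPA1 differed by 1.42 and 1.06, FBH1, a helicase that restrains recombination, by 1.10, and BABAM2, a subunit of the BRCA1-A complex, by 1.13. As means of probe sets RPA1 and FBH1 differed by 0.79 and 0.75. ZSWIM7, a subunit of the Shu complex, was at 7.82 and 5.99, a difference of -1.84, and its second probe set differed by 0.20.

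Genes next to each other on a chromosome can share a difference, so each of the 36 genes was set beside the 10 measured genes on either side of it whose brighter array reached the median, or as many as there were before the chromosome end (14 in all for RAD52). The higher genes lay on 10 chromosomes. All 3 measured genes on chromosome 2 (BARD1, GEN1 and FANCL) and all 3 on chromosome 9 (RMI1, FANCC and FANCG) were at least 2-fold higher, and none of the 3 on chromosome 8 (NBN, RAD54B and WRN) or of the 3 on chromosome 11 (MRE11, MUS81 and FANCF) was. Of the other genes there whose brighter array reached the median, 14.3% on chromosome 2, 17.6% on chromosome 9, 16.5% on chromosome 8 and 9.27% on chromosome 11 were at least 2-fold higher. A gene can meet this signal rule through PC3CR alone. Of all 10644 genes that met it, 1657 were at least 2-fold higher, and their median difference was 0.09. On chromosome 15, BLM and FAN1 were past 2-fold and FANCI was at 0.96. The neighbours of the 16 higher genes had medians from -0.26 to 0.86, and those of the other 20 genes from -0.78 to 0.64. Of 19 genes whose neighbours had a median above 0, 11 were at least 2-fold higher, and of 17 with a median below 0, 5 were. The neighbours stood at 0.86 for RMI1, 0.79 for USP1 and 0.67 for BLM, so that USP1 exceeded its neighbours by 0.21 and BLM by 0.43. RMI2, FIGNL1 and BRCA1 exceeded theirs by 2.26, 1.95 and 1.87, and UBE2T, FAN1, RAD51AP1 and FANCG by between 1.19 and 1.43.

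On chromosome 17 all 5 measured genes had neighbours with a median below 0. BRCA1 was past 2-fold there, while 0 of its 20 neighbours were and 3 were at least 2-fold lower. EME1 at -0.01 stood above neighbours at -0.75, BRIP1 at 0.18 above -0.42, RAD51C at 0.49 above -0.43 and RAD51D at -0.25 above -0.33. FANCB on the X chromosome, at -0.78, equalled its neighbours, also at -0.78. Across the 36 genes the difference of a gene and the median of its neighbours had a Pearson correlation of 0.44 and a Spearman correlation of 0.42, a description over genes that come from the same 2 arrays and partly share neighbours. What part chromosomal position had in these differences was not tested.

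**Figure D4:**
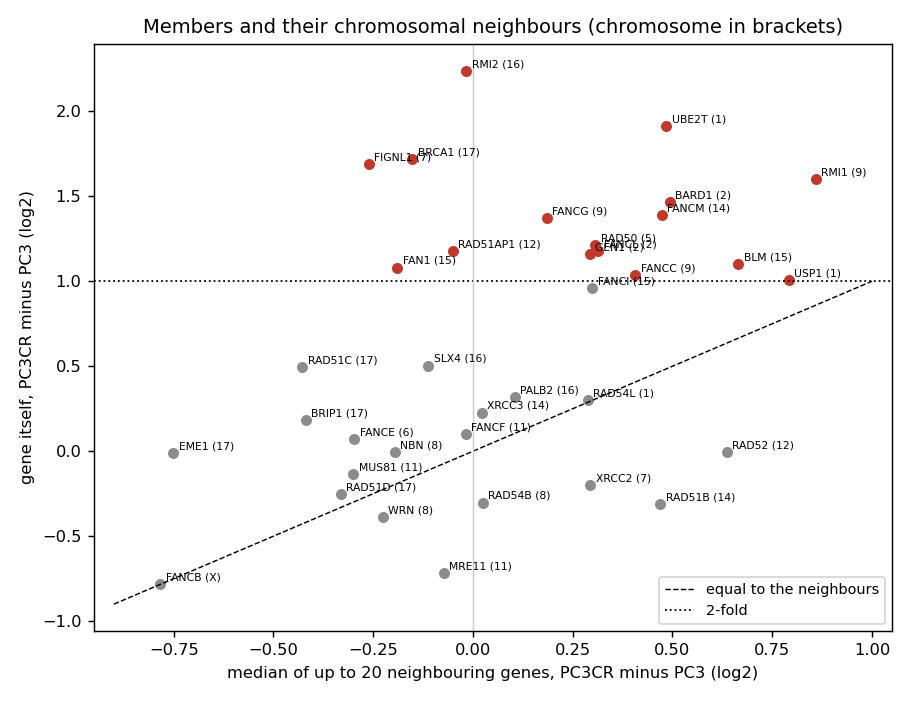
PC3CR minus PC3 (log2) of each of the 36 genes (vertical axis) against the median of up to 20 neighbouring genes (horizontal axis), with the chromosome in brackets, red for genes at least 2-fold higher, a dotted line at 2-fold and a dashed line where a gene equals its neighbours. RMI2, FIGNL1 and BRCA1 lie high above neighbours with medians below 0, while USP1 and BLM lie nearer to the dashed line.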

How the data were processed

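Total RNA of PC3 and of PC3CR was hybridised to 1 array each. For each probe set the authors deposited a log2 value that they had made by RMA. The submitters' notes list RMA, Transcriptome Analysis Console 3.1 and Affymetrix Expression Console 1.4. The methods give one array type, but the probe set names belong to another, the Human Genome U133 Plus 2.0. RMA makes the distributions of arrays alike, so that a change in total RNA per cell is not seen. Precision is limited by the number of arrays.

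Of 54613 probe sets, 41091 carried 1 gene symbol and were used, 1801 carried several and 11721 were unnamed here. Symbols were updated through Entrez IDs to RefSeq on GRCh38.p14. PC3CR minus PC3 was taken per gene from the probe set with the highest mean, and a gene counted as higher or lower when this was 1 or more, or -1 or less. No p-value was computed, since 1 array per line gives no spread between cultures. All 36 measured genes are named. Of the other pathway genes those past 2-fold are named, and TOP3A is named for its complex, after its value was seen. The genes and lists were chosen with earlier results of these data known. Alternatives were the mean of probe sets, probe sets without a shared suffix, a floor on signal, median centring, loess centring (span 0.4), quantile normalization, 1.5-fold and 3-fold thresholds and other cycling lists. The scalings, with the brightest probe set per gene, were tested on simulated arrays with known differences past the threshold and an assumed noise. All probe sets of a gene were given the same difference there, so the choice among probe sets that disagree was not tested. The other steps were not tested in this way. The work was done in Python 3.11.15 with pandas 2.3.3, numpy 2.4.6, matplotlib 3.10.9 and statsmodels 0.14.6.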

Additional observations from a re-analysis of the deposited data

How the results depend on the processing

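The count of 16 higher genes was between 12 and 17 under the mean of probe sets, other probe sets, the floor and the 3 other scalings, and no gene was at least 2-fold lower in any of these. At a 3-fold threshold 5 genes were higher, 3 listed as cycling and 2 others, and at 1.5-fold 2 were lower. With the mean of probe sets, 5 genes outside the cycling list were higher in place of 9. The median of all genes in the list was 1.01 with the floor on signal and 0.37 after quantile normalization, in place of 0.50. The floor takes the brighter of the 2 arrays, so a gene can enter through PC3CR alone, and a higher median follows in part from that. The median outside the cycling list was 0.50 with the floor and 0.49 with probe sets of no shared suffix preferred, in place of 0.32. With the strict cycling list 3 of 4 genes were higher, and with the wide list 12 of 21 listed and 4 of 15 others, whose median was 0.069. Of single genes, FANCM differed by -0.093 when the probe set without a shared suffix was used, an alternative chosen for single genes after seeing the data. The count of 16 was the same there, with 2 genes lost (FANCC and FANCM) and 2 gained (RAD51B and RAD51D). FANCE, NBN, EME1 and RAD52, whose differences lay between -0.01 and 0.07, changed sign under other scalings. The cause of these changes was not tested beyond what the settings themselves change. No paired analysis was possible because each cell line has 1 array. Signals near or under the lower quartile, as for GEN1, limit the size of a difference. The probe sets brought in for FANCC and FANCM, and in PC3 those for RAD51B and RAD51D, were also under it.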
